A study of Mus musculus with 6 samples.

Results

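Hedgehog signalling was read through 9 genes in the 49548 genes of the table, chosen by symbol as the core of the pathway and not by their values. They are the ligands Ihh, Shh and Dhh, the receptor Ptch1, the signal transducer Smo, the transcription factors Gli1, Gli2 and Gli3, and the ligand-binding inhibitor Hhip. Without a ligand, Ptch1 keeps Smo inactive, and binding of a ligand to Ptch1 releases Smo, so that the Gli factors turn on their targets, which include Gli1, Ptch1 and Hhip themselves. In the intestine the ligands come mainly from the epithelium and are received by the mesenchyme beneath it, where the pathway is known for its role in the patterning and upkeep of stromal cells.

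The data were 3′ mRNA sequencing of cancer-associated fibroblasts (CAFs) sorted from colonic adenomas, 3 libraries of Col6a1+ and 3 of Col6a1- CAFs, each from the pooled tumors of 5 to 6 mice. The paper counts 3 samples in total, each such a pool, so both groups may have been sorted from the same pools. The labels do not settle this, and the main fit below has no term for it. All mice were Col6a1-Cre, Rosa26-mTmG on the C57/BL6 strain and were treated from 8 to 10 weeks of age with azoxymethane (AOM), a carcinogen, and 3 cycles of dextran sodium sulfate (DSS), which injures the colon. The mTmG reporter changes membrane Tomato to GFP where Cre, driven here by Col6a1 regulatory sequences, has acted, so that GFP+ cells are the Col6a1+ CAFs and Tomato+ cells the Col6a1- CAFs. CAFs were defined by exclusion, as cells without CD45, CD31, Ter119 and EpCAM, the Cre line also marks perivascular cells, and neither untreated mice nor normal fibroblasts are analysed here.

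Values are the authors' normalized counts, which are read counts divided by a size factor for each library, and they are given in the order of replicates 1, 2 and 3. They are not corrected for gene length, which suits libraries that read only the 3′ end of each transcript, and levels are compared below between libraries and not between genes. A log2 fold change is the difference between the group means of log2(normalized count + 1), positive where Col6a1+ CAFs were higher, and it understates the change of genes with few counts. Each was tested with limma, two-sided, over 26402 genes (those whose normalized counts summed to 1 or more), with Benjamini-Hochberg adjustment, and a gene was said to pass at an adjusted p under 0.05. Libraries summed to between 3039152 and 3425249 normalized counts, and between 14530 and 20511 genes were detected in each, with the fewest in Col6a1+ replicate 1. Col6a1 itself separated the groups as the labels state, with 861, 1287 and 1941 normalized counts in Col6a1+ and 182, 321 and 102 in Col6a1- CAFs (log2 fold change 2.82, SE 0.44, limma adjusted p = 0.00613).

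The receptor Ptch1 was higher in Col6a1+ CAFs and was the only one of the 9 genes that passed. Smo, Gli1 and Gli2 were also higher in every Col6a1+ library than in any Col6a1- library, without passing, and Shh was detected in Col6a1- CAFs only. All 9 genes were tested, 7 of them averaged 10 normalized counts or more over the libraries, and their median log2 fold change was 0.74 against -0.27 over all genes tested. The share of all genes that passed as higher in Col6a1+ CAFs was 2.66% and as lower 1.96%, against 1 and 0 of the 9. The libraries did not overlap, with Col6a1+ above, in 4 of the 9 genes, where 7.91% of all genes did so, and with Col6a1- above in 1 gene, where 11.6% did so. At an unadjusted limma p under 0.05 with a log2 fold change beyond 1 in size, 4 of the 9 genes were higher (6.09% of all genes) and 2 were lower (8.61%).

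**Figure D1:**
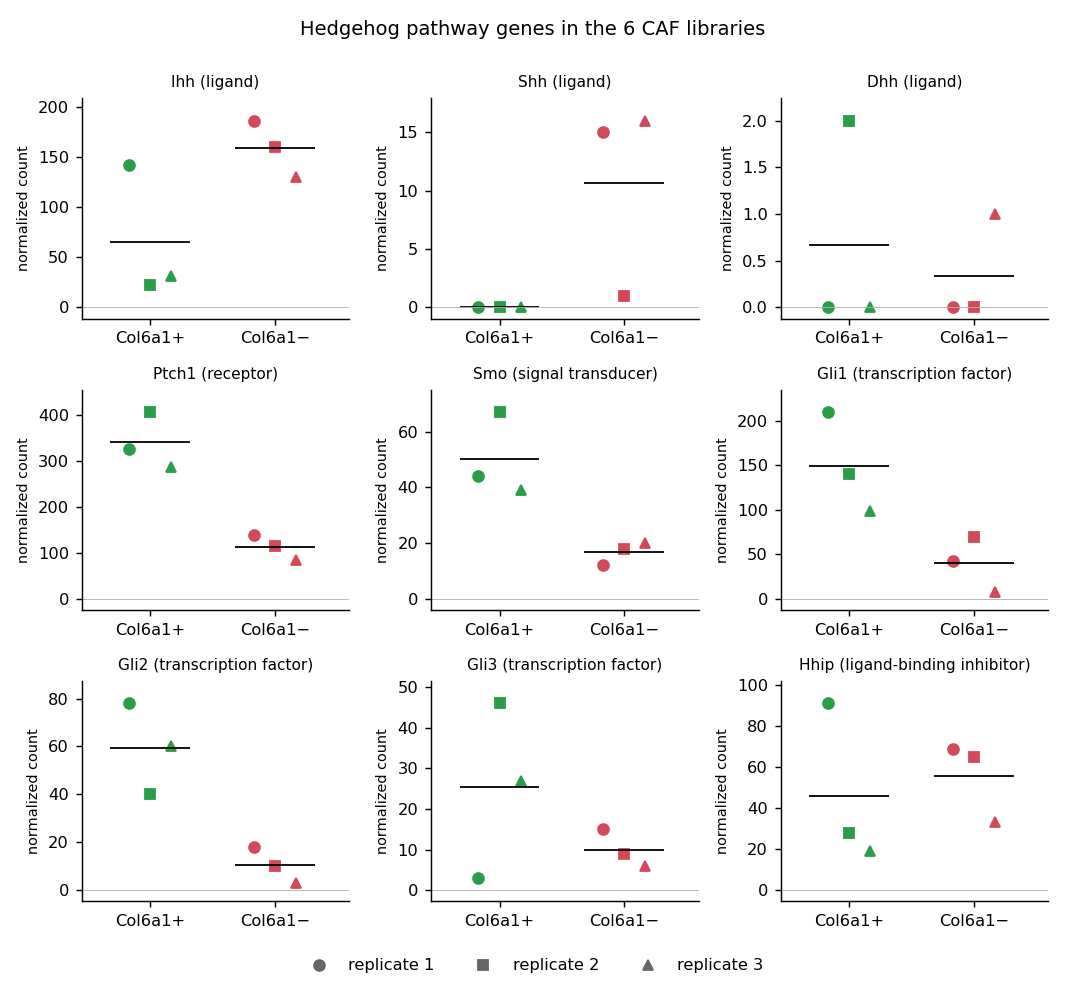
Normalized counts of the 9 Hedgehog genes in the 6 libraries, one panel per gene with its own linear axis, points for libraries (circle, square and triangle for replicates 1, 2 and 3) and a line at each group's mean. All 3 Col6a1+ points lie above all 3 Col6a1- points for Ptch1, Smo, Gli1 and Gli2, the 3 Col6a1+ points for Shh are at 0, and for Ihh Col6a1+ replicate 1 stands apart at 142.

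Ptch1 (ENSMUSG00000021466, chr13:63508328-63573598, minus strand, mm10) encodes the receptor that binds all 3 ligands and holds Smo inactive, and it is itself a target of the pathway. It had 327, 407 and 288 normalized counts in Col6a1+ CAFs and 138, 114 and 84 in Col6a1- CAFs, or 340.7 ± 60.7 against 112.0 ± 27.1 (SD, n = 3). The lowest Col6a1+ library was above the highest Col6a1- library. The log2 fold change was 1.61 (SE 0.33, 95% interval 0.87 to 2.35, limma adjusted p = 0.0227). With a block for the replicate number its limma adjusted p rose to 0.0797, in a fit where 0 of all genes tested passed. Its adjusted p lay between 0.0530 and 0.131 when any 1 of the 6 libraries was left out, with log2 fold changes of 1.42 to 1.77. In bulk RNA, fewer cells that express a gene and less RNA of that gene per cell cannot be told apart.

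The promoter of Ptch1, as the promoter of the gene that passed, and that of Gli2, which had the largest positive log2 fold change of the 9, are shown as 300 bases of RefSeq sequence (GRCm38.p6, minus strand, 250 bases before the start of the gene and 50 after it). Capitals mark a stretch of 9 bases with the fewest mismatches to GACCACCCA, the motif that Gli factors bind, searched on both strands, the first found where several tied. The Ptch1 window (chr13:63565686-63565985) lies inside the gene's span in the table, whose longest transcript starts further upstream.
Ptch1: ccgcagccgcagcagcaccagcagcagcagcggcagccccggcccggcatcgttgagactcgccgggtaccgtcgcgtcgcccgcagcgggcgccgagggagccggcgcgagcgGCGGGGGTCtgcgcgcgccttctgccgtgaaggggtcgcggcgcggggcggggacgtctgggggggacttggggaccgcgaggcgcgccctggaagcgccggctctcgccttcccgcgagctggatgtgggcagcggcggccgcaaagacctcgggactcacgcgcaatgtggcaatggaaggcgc
Gli2 (chr1:119053570-119053869): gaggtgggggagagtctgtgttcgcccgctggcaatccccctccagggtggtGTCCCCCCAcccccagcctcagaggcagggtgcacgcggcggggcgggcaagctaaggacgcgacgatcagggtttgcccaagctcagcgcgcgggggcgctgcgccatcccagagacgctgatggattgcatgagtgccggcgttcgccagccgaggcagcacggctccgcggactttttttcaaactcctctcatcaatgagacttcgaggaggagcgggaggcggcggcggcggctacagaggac
The fewest mismatches were 3 in Ptch1, at 4 stretches, and 2 in Gli2, at 2 stretches. Of the 9 genes, 7 had an entry among the 32851 promoters, all but Shh and Gli1, and of these none held the motif with up to 1 mismatch and 5 held it with up to 2. Among all promoters of this length, 0.253% held it exactly, 6.74% with up to 1 mismatch and 58.3% with up to 2, so that a match at this last level is common. Both windows were rich in CpG, with 47 CpG dinucleotides in Ptch1 and 28 in Gli2 against a median of 7 over all promoters.

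Among the ligands, Ihh (ENSMUSG00000006538, chr1:74945315-74951672, minus strand), made in the colon mainly by differentiated epithelial cells, was the one with the most counts. It had 142, 22 and 31 normalized counts in Col6a1+ CAFs and 186, 160 and 130 in Col6a1- CAFs, or 65.0 ± 66.8 against 158.7 ± 28.0 (SD, n = 3). Replicates 2 and 3 of the Col6a1+ CAFs were far below the other libraries, while replicate 1 lay within the range of the Col6a1- CAFs. The log2 fold change was -1.74 (SE 0.62, 95% interval -3.13 to -0.36, limma adjusted p = 0.173). Without Col6a1+ replicate 1 it was -2.54 and passed (limma adjusted p = 0.0230), where 1.69% of all genes passed as lower, and it did not pass when any other library was left out.

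Shh (ENSMUSG00000002633, chr5:28456815-28467256, minus strand), the ligand of the crypt base, had 0 normalized counts in all 3 Col6a1+ libraries and 15, 1 and 16 in the Col6a1- libraries. A count of 0 allows up to 3 counts in a library, so the Col6a1- mean of 10.7 ± 8.39 (SD, n = 3) was at least 3.56-fold higher, and Col6a1- replicate 2 was itself under that limit. The difference did not pass in the log2 fit (limma adjusted p = 0.133) and passed with limma-voom (adjusted p = 0.0329), where 3.02% of all genes passed as lower. Dhh (ENSMUSG00000023000, chr15:98893031-98898540, minus strand), a ligand of Schwann and endothelial cells, had 0, 2 and 0 normalized counts in Col6a1+ and 0, 0 and 1 in Col6a1- CAFs, all under the limit that a count of 0 allows. No difference was detectable for it at this depth.

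Smo (ENSMUSG00000001761, chr6:29735503-29761365, plus strand) encodes the membrane protein that passes the signal into the cell. It had 44, 67 and 39 normalized counts in Col6a1+ CAFs and 12, 18 and 20 in Col6a1- CAFs, or 50 ± 14.9 against 16.7 ± 4.16 (SD, n = 3), with no overlap. This gave a log2 fold change of 1.52 (SE 0.57, 95% interval 0.25 to 2.79, limma adjusted p = 0.198). When only genes at 10 or more in all 6 libraries were kept, its limma adjusted p was 0.0401, and 7.35% of the genes kept passed as higher. That filter changes both the variance estimates and the number of genes adjusted over.

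Gli1 (ENSMUSG00000025407, chr10:127329889-127341589, minus strand) encodes an activator whose own transcription depends on the pathway and is the usual readout of its activity. Its normalized counts were 210, 140 and 99 in Col6a1+ CAFs and 43, 70 and 8 in Col6a1- CAFs, or 149.7 ± 56.1 against 40.3 ± 31.1 (SD, n = 3). The groups did not overlap, and Col6a1- replicate 3 was far below the other libraries. On the log2 scale the difference was 2.24 (SE 0.71, 95% interval 0.67 to 3.81, limma adjusted p = 0.116), and 1.36 without Col6a1- replicate 3.

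Gli2 (ENSMUSG00000048402, chr1:118834132-119053619, minus strand), the main activator that first responds to Smo, had 78, 40 and 60 normalized counts in Col6a1+ CAFs and 18, 10 and 3 in Col6a1- CAFs, or 59.3 ± 19.0 against 10.3 ± 7.51 (SD, n = 3). Every Col6a1+ library was above every Col6a1- library. The log2 fold change of 2.63 (SE 0.74, 95% interval 0.99 to 4.27) did not pass (limma adjusted p = 0.0786). When the block for the replicate number was fitted to genes averaging 10 or more, both Gli2 (adjusted p = 0.0461) and Gli1 (adjusted p = 0.0307) passed, as did Ptch1 (adjusted p = 0.0113) and 7.26% of the genes tested there as higher. With the block alone the adjusted p was 0.148 for Gli2 and 0.159 for Gli1, and with the filter alone 0.0531 and 0.0958.

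Gli3 (ENSMUSG00000021318, chr13:15463235-15730026, plus strand), which acts mainly as a repressor without ligand, had 3, 46 and 27 normalized counts in Col6a1+ CAFs and 15, 9 and 6 in Col6a1- CAFs, or 25.3 ± 21.5 against 10 ± 4.58 (SD, n = 3). Its highest and its lowest value were both in Col6a1+ CAFs, with the lowest in replicate 1. Its log2 fold change was 0.74 (SE 1.03, 95% interval -1.53 to 3.02, limma adjusted p = 0.691), and 1.80 without Col6a1+ replicate 1 (adjusted p = 0.172).

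Hhip (ENSMUSG00000064325, chr8:79965851-80058006, minus strand) encodes a membrane protein that binds the ligands and keeps them from Ptch1, and like Gli1 and Ptch1 it is a target of the pathway. It had 91, 28 and 19 normalized counts in Col6a1+ CAFs and 69, 65 and 33 in Col6a1- CAFs, or 46.0 ± 39.2 against 55.7 ± 19.7 (SD, n = 3). The groups overlapped, and replicate 1 had the most counts in each of them. The log2 fold change was -0.52 (SE 0.64, 95% interval -1.94 to 0.90, limma adjusted p = 0.649), an interval that holds both a fall and a rise. Whether Hhip differed in its change from Ptch1 and Gli1 was not tested.

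The counts of cell type markers differed between the groups as well. The 10 epithelial markers summed to between 5716 and 6341 normalized counts in Col6a1+ CAFs and between 19520 and 31461 in Col6a1- CAFs, although EpCAM+ cells had been excluded. Of these markers 6 passed as lower in Col6a1+ CAFs, none was at 0 in a group, and Epcam itself had 1074, 884 and 615 against 3107, 4129 and 3730 normalized counts. The 6 pan-fibroblast markers (Col1a1, Col1a2, Col3a1, Dcn, Lum and Vim) summed to between 39390 and 43877 in Col6a1+ and between 8472 and 15422 in Col6a1- CAFs, and 3 of them passed as higher. The 6 pericyte markers differed most, with sums between 40108 and 88864 in Col6a1+ and between 1089 and 2026 in Col6a1- CAFs and a median log2 fold change of 5.52, and all 6 passed. Rgs5, the most abundant of them, had 42173, 29648 and 31282 against 509, 700 and 297 normalized counts. Smooth muscle markers (2178 to 3202 against 90 to 418) and telocyte markers (2519 to 4128 against 943 to 1258) were also higher in sum in every Col6a1+ library. Trophocyte markers, of another fibroblast subset, went the other way (244 to 496 against 1101 to 1211, median log2 fold change -1.80). Immune markers were also lower in sum in every Col6a1+ library (35 to 47 against 146 to 163).

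Ptch1, Smo, Gli1 and Gli2 thus had more counts in the group with more pan-fibroblast, pericyte, smooth muscle and telocyte counts. Shh had more in the group with more epithelial, trophocyte and immune counts. Ihh reached 142 in the library with the lowest epithelial sum and Shh was at 1 in the one with the highest, each in 1 library only. The part of these lists in the differences was not tested. Each gene was set against the sum of the epithelial or the pan-fibroblast list in the same library.

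For every 1000 epithelial counts, Ihh had 24.8, 3.69 and 4.89 counts in Col6a1+ CAFs and 9.53, 5.09 and 5.47 in Col6a1- CAFs. These ratios overlapped (exact permutation test, two-sided, p = 1), with Col6a1+ replicate 1 the highest of the 6. The other Col6a1+ ratios, 3.69 and 4.89, were below every Col6a1- ratio. The test compared group means, and the Col6a1+ mean was the higher only through replicate 1. It therefore cannot decide whether Ihh differed between the groups per epithelial count. For Shh the ratio was 0 in each Col6a1+ library and 0.768, 0.0318 and 0.673 in Col6a1- CAFs (exact permutation p = 0.1, the smallest that 3 against 3 libraries allow).

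Per 1000 pan-fibroblast counts, Ptch1 had 8.30, 9.52 and 6.56 counts in Col6a1+ CAFs and 8.95, 7.72 and 9.92 in Col6a1- CAFs (exact permutation p = 0.6). The 6 values lay in one range, unlike the normalized counts of the same gene. Most of the sum came from Col1a1, Col1a2 and Col3a1 (log2 fold changes 2.21, 2.50 and 1.81). Dcn (0.91), Lum (0.56) and Vim (0.90) differed less between the groups than Ptch1, and ratios to them alone were not tested. The ratios of Smo (p = 0.8), Gli1 (p = 0.6) and Gli2 (p = 0.2) overlapped too by the same exact permutation test. Hhip had 2.31, 0.655 and 0.433 counts per 1000 pan-fibroblast counts in Col6a1+ CAFs and 4.47, 4.40 and 3.90 in Col6a1- CAFs, where every Col6a1- library was above every Col6a1+ library (exact permutation p = 0.1, the smallest possible).

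**Figure D2:**
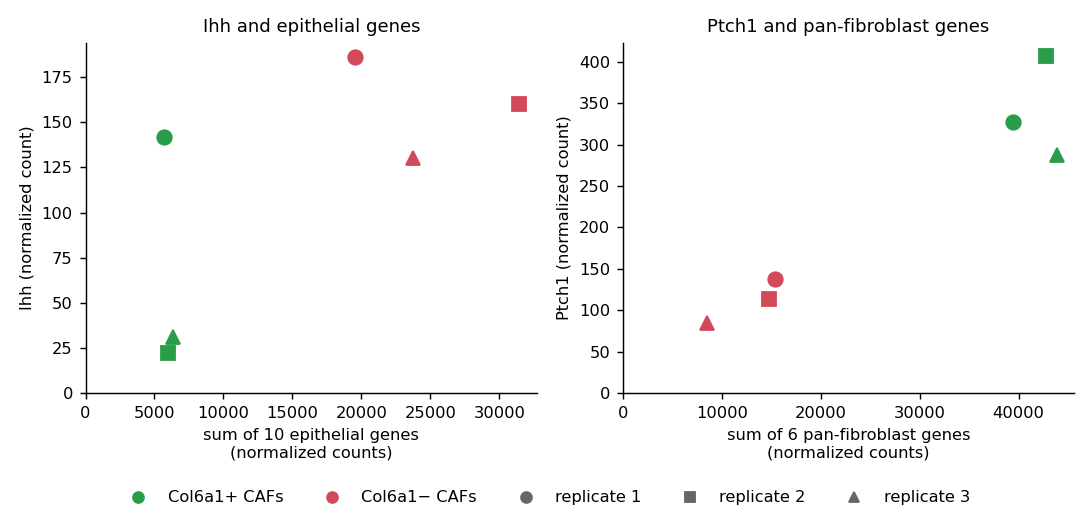
Normalized counts of Ihh against the sum of 10 epithelial markers (left) and of Ptch1 against the sum of 6 pan-fibroblast markers (right), linear axes, one point per library coloured by group and shaped by replicate. Ihh in Col6a1+ replicate 1 reaches 142 at a low epithelial sum of 5716, and Ptch1 and the fibroblast sum are both higher in all 3 Col6a1+ libraries than in the Col6a1- libraries.

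A similar question was put to the fit over all genes, a choice made after seeing the data. Each library was rescaled by the mean log2(normalized count + 1) of one of the lists, which weighs its genes equally, unlike a sum. Scaling to the pan-fibroblast markers moved the median over all genes to -1.14 (log2), and scaling to the epithelial markers moved it to 0.87. After the fibroblast scaling, Ptch1 had a log2 fold change of 0.14 (95% interval -0.83 to 1.10, limma adjusted p = 0.813) and Smo one of 0.089. Gli1 (0.80) and Gli2 (1.26) stayed positive without passing (limma adjusted p = 0.407 and 0.281), Gli3 turned to -0.63, and Ihh (-3.19, limma adjusted p = 0.00663) and Shh (-3.68, limma adjusted p = 0.0281) passed as lower, as did 23.6% of all genes.

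After the epithelial scaling, Ihh was at 0.030 (limma adjusted p = 0.98), while Ptch1 (3.39), Smo (3.23), Gli1 (3.98) and Gli2 (4.25) all passed, with adjusted p between 2.74e-04 and 0.00478. Hhip turned from -0.52 to 1.23 and did not pass. Under this scaling 23.9% of all genes passed as higher. Set against the median of all genes, Ptch1 lay 1.88 higher (log2) with the authors' size factors, 1.27 with the fibroblast and 2.53 with the epithelial scaling. Both scalings moved Ptch1 further than the median, and the 3 values come from the same counts and are not independent of each other.

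**Figure D3:**
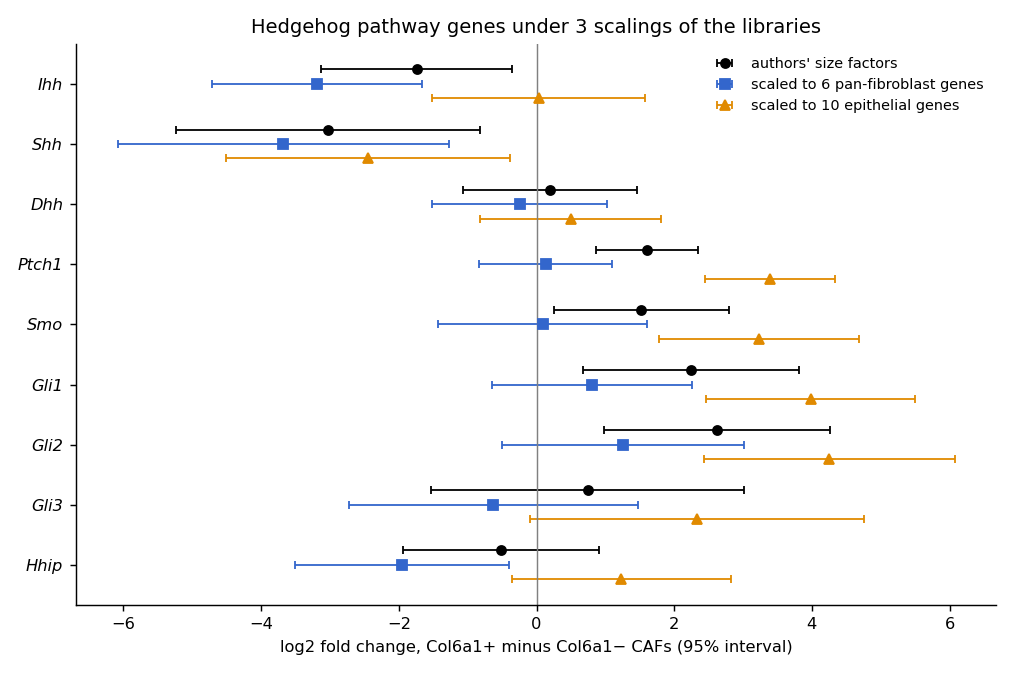
Log2 fold changes (Col6a1+ minus Col6a1- CAFs) of the 9 genes on the horizontal axis, with 95% intervals from limma, under the authors' size factors (circles) and with the libraries scaled to 6 pan-fibroblast (squares) or 10 epithelial markers (triangles). The values of Ptch1 run from 0.14 through 1.61 to 3.39, and the fitted values of Shh, at 0 in a whole group, depend on the pseudocount of 1.

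Beyond the 9 genes, 48 other genes of the pathway were listed, of which 47 could be tested and 41 averaged 10 normalized counts or more. Lrp2, a co-receptor, had 0 counts in every library. Their median log2 fold change was 0.28, 2 passed as higher in Col6a1+ CAFs and 0 as lower (2.66% and 1.96% of all genes), and 8 were higher and 3 lower at an unadjusted p under 0.05 with a log2 fold change beyond 1 (6.09% and 8.61% of all genes). In Col6a1+ replicate 1, the library with the fewest genes detected, 11 of the 48 were at 0, against 1 to 3 in the others. All Col6a1+ libraries lay above all Col6a1- libraries in 9 of the 47 genes and below them in 7 (7.91% and 11.6% of all genes). None of the 48 passed with the replicate block, where 0 of all 26402 genes tested did.

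Of the 6 genes for processing and release of ligands, none passed. The largest difference was that of Disp1, which releases the lipid-bearing ligands from the cells that make them, with 0, 12 and 27 normalized counts in Col6a1+ and 67, 46 and 44 in Col6a1- CAFs (log2 fold change -2.88, SE 1.11, limma adjusted p = 0.215). The groups did not overlap, but BC085271, a pseudogene on the same strand within Disp1, had 10, 113 and 122 against 106, 118 and 141 counts, so reads could have been split between them.

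None of the 4 other receptors and co-receptors tested passed. Among the 19 cytoplasmic and membrane regulators, Prkacb passed. It encodes a catalytic subunit of protein kinase A, which phosphorylates Gli2 and Gli3 and so restrains the pathway, and it had 172, 229 and 361 normalized counts in Col6a1+ CAFs and 52, 86 and 88 in Col6a1- CAFs. Its log2 fold change was 1.71 (SE 0.40, limma adjusted p = 0.0383, and 0.0799 with the replicate block) and 0.24 after scaling to the pan-fibroblast markers. With 1 library left out its adjusted p lay between 0.0481, without Col6a1+ replicate 1, and 0.177, and it passed in none of the other 5 such fits. Evc, a protein at the base of the cilium that relays the signal of Smo, had the largest log2 fold change of the list, with 30, 55 and 52 against 6, 6 and 1 normalized counts (3.29, SE 0.84, limma adjusted p = 0.0531).

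The 10 genes of the primary cilium, the organelle in which Ptch1 and Smo act, were split evenly, with 5 log2 fold changes above 0 and 5 below, and none passed. Inpp5e, a phosphatase of the ciliary membrane, had the largest, -2.15 (SE 1.20, limma adjusted p = 0.434), with 0, 22 and 37 normalized counts in Col6a1+ and 46, 39 and 40 in Col6a1- CAFs. It shares 874 bases with Pmpca on the opposite strand, which had 88, 73 and 31 against 176, 112 and 135 normalized counts. Without stated strand counting, reads in the shared stretch cannot be told apart.

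Of the 8 known targets in mesenchyme, Foxf1 passed and 3 had all Col6a1+ libraries above the Col6a1- libraries, as had 7.91% of all genes. Foxf1, a transcription factor of the gut mesenchyme, had 1850, 1170 and 835 normalized counts in Col6a1+ CAFs and 402, 302 and 102 in Col6a1- CAFs, and replicate 3 was the lowest of each group. This was a log2 fold change of 2.39 (SE 0.49, limma adjusted p = 0.0224, and 0.0612 with the replicate block) and 0.91 after scaling to the pan-fibroblast markers (limma adjusted p = 0.221). None of the 6 fits with 1 library fewer called it (limma adjusted p = 0.0793 to 0.132). Its reads could be shared with Gm20388, a gene model on the same strand that covers it, which had 1004, 823 and 619 against 595, 411 and 325 counts. Foxl1 and Bmp4 were the other 2 targets without overlap, and neither passed.

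**Figure D4:**
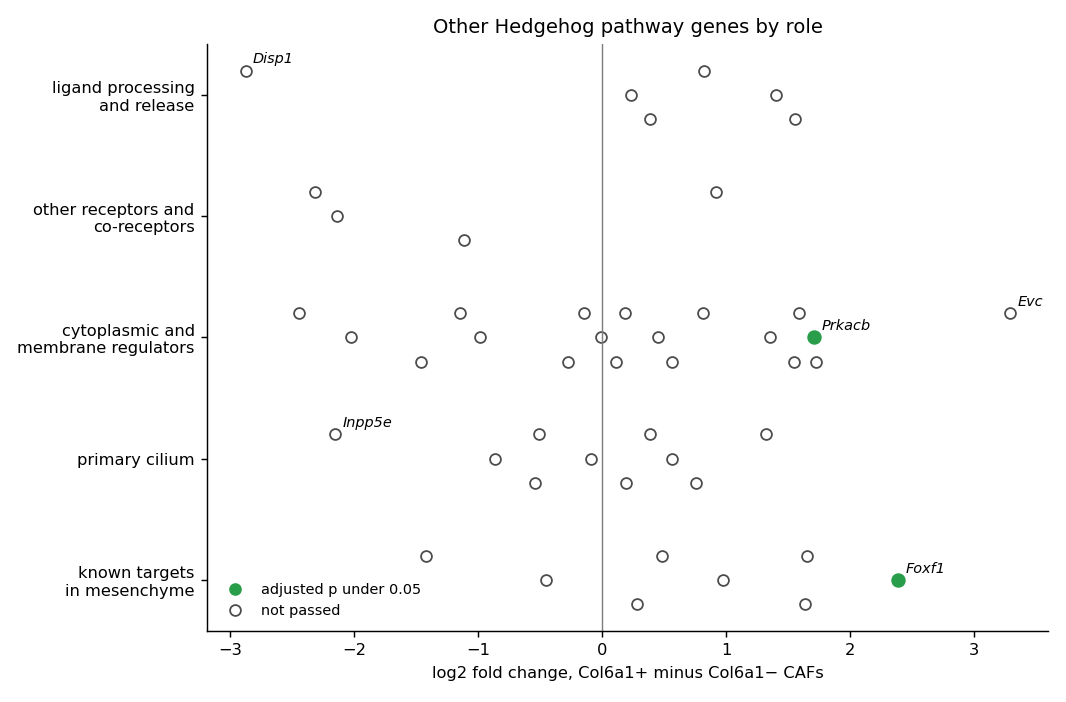
Log2 fold changes (Col6a1+ minus Col6a1- CAFs, horizontal axis) of the 47 other Hedgehog pathway genes that could be tested, one circle per gene in rows by role, spread vertically only to separate them, filled where the limma adjusted p was under 0.05. Prkacb and Foxf1 are the 2 filled circles, and Disp1, Evc and Inpp5e are the open circles named.

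As a description of how the 9 genes varied over the 6 libraries, each was set beside the genes with the most similar profile. Likeness was the root mean square difference between log2 values, each centred on the gene's own mean, with the 13515 genes averaging 10 normalized counts or more compared. Ptch1 had the closest neighbours, Fgfr1 (0.131), Hdac5 (0.140) and Tgfbi (0.140). The genes nearest to Ihh were Ap1s3 (0.238), Ucp2 (0.258) and Cdcp1 (0.261), which shared its higher level in Col6a1+ replicate 1, as with Ap1s3 at 74, 17 and 21 against 112, 121 and 111 normalized counts. Nearest to Smo were Mapk12 (0.186), C2cd2 (0.195) and Oaf (0.198), and to Hhip Coq9 (0.173), Atp6ap2 (0.193) and BC022687 (0.2).

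The profile of Gli1 was followed most closely by Calcrl (0.180), Mageh1 (0.259) and Rgl1 (0.328), and that of Gli2 by Serping1 (0.174), Pla1a (0.184) and Slc2a10 (0.214). Neither list shared a gene with the other or with that of Ptch1. Gli3 had the least similar neighbours, Sardh (0.311), Sat2 (0.365) and Pyroxd2 (0.366).

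Gene models that overlap the 9 genes had at most 13 normalized counts in a library, and how reads in shared stretches were assigned is not known. Gli1 shares 55 bases with Arhgap9 on the opposite strand, which had 0, 6 and 5 against 5, 13 and 0 normalized counts. Within Ptch1 lies A930032L01Rik, with at most 12, and within Smo the pseudogene Gm13717, with at most 11, both on the same strand. The 11 counts were in Col6a1+ replicate 3, where Smo had 39. Gm26894, opposite Shh, had 0 in each Col6a1+ library and 7, 0 and 3 in the Col6a1- libraries, where Shh had 15, 1 and 16. Without stated strand counting the reads of this pair cannot be told apart.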

How the data were processed

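The authors sorted GFP+ (Col6a1+) and Tomato+ (Col6a1-) CAFs, prepared QuantSeq libraries, sequenced them on an Ion Proton instrument, mapped reads to mm10 with TopHat2 and then Bowtie2, counted them per gene with GenomicRanges and normalized them with DESeq through metaseqR. The strand setting of counting is not given in the sources used here. The deposited table holds, for each gene and library, the log2 of the authors' normalized count plus 1, whole normalized counts in 100% of values. Its columns of the authors' own comparison (p-values, false discovery rates and fold changes) and 6 further per-sample columns were not used. Sums of normalized counts ran from 3039152 to 3425249 per library. They carry the scaling and are not read numbers, and limits from a count of 0 (3 counts) cover counting error only.

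Groups and replicate numbers came from the labels. Each library came from pooled tumors of 5 to 6 mice, so p-values measure the spread between these pooled libraries and not between single mice. If both groups share pools, the reported fit ignores that pairing. The deposited log2 values were fitted with limma 3.58.1 in R 4.3.3 (lmFit, then eBayes with trend, where the prior had 6.48 degrees of freedom and the residual 4) over the 26402 genes with a total of at least 1. Ratios to marker sums were tested by permuting the libraries exactly, with NumPy 2.4.6 in Python 3.11.15. The 95% intervals used SciPy 1.17.1 and the plots Matplotlib 3.10.9. The fit was tested on simulated data. The 9 genes and all lists were chosen with earlier results of these data known.

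Beside the 9 genes, the text names those of the 48 other pathway genes that passed, the one with the largest change per role (mean of at least 10), the 3 nearest profiles of each of the 9 with a mean of at least 10, overlapping genes and Col6a1. One gene that this rule names is not reported here. Foxl1, Bmp4, Lrp2 and the markers Rgs5 and Tie1 were named after their values were seen. The calls of marker lists not given in the report were these. Immune markers (8) had 0 calls, endothelial (6) 1 higher (Tie1) with the other 5 negative and a median log2 fold change of -1.59, erythroid (6) 0, glial (6) 0, smooth muscle (5) 3 higher, telocyte (6, Foxl1 among them) 4 higher and trophocyte (5) 2 lower.

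Replicate numbers were read as pairs only in the fits with a replicate block, and the reported fit has none. The deviations from group means had correlations of 0.245, 0.125 and 0.144 for equal numbers (-0.245 to 0.150 for unequal) over 13515 genes. Pairing was thus not clear for replicates 2 and 3. Alternatives were library size alone, filters (a minimum of 10 in each library, a mean of 10, none), a pseudocount of 0.1, limma-voom, the replicate block with and without a mean of 10, an unadjusted criterion (p under 0.05 and a log2 fold change over 1 in size) and leaving out each library. The 2 scalings to marker lists were chosen after seeing the data. Promoters are from RefSeq.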

Additional observations from a re-analysis of the deposited data

How the results depend on the processing

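Ptch1 was the only call among the 9 genes, and it was lost when any 1 of the 6 libraries was left out. Higher in Col6a1+ CAFs were 1 of the 9 genes in the reported fit, 2 among genes at 10 or more in each library, 0 with no filter, 0 with the replicate block, 3 with the block over genes with a mean of at least 10, 4 by the unadjusted criterion, 0 scaled to pan-fibroblast and 4 scaled to epithelial markers, and 0 to 0 when a library was left out. Lower were 0 as reported, 1 with limma-voom (Shh), 2 by the unadjusted criterion, 2 scaled to pan-fibroblast markers, and 0 to 1 when a library was left out (1, Ihh, without Col6a1+ replicate 1). Of the other pathway genes 2 were higher as reported, 6 at 10 or more in each library, 5 with a mean of at least 10, 0 with no filter, 1 with a pseudocount of 0.1, 4 with limma-voom, 0 with the replicate block, 7 with the block and a mean of at least 10, 8 unadjusted, 0 and 21 under the pan-fibroblast and epithelial scalings, and 0 to 1 with a library left out. Lower were 0, 3 unadjusted and 14 under the pan-fibroblast scaling. Passing as higher over all genes were 696 of 9473 at 10 or more in each library and 815 of 13515 with a mean of at least 10. There were 561 of 26402 with a pseudocount of 0.1, 771 of 26402 with limma-voom, and 981 of 13515 with the block and a mean of at least 10. The unadjusted criterion gave 1607 higher and 2273 lower of 26402. Of all genes, 23.6% passed as lower under the pan-fibroblast scaling and 23.9% as higher under the epithelial scaling. Over all genes 1220 were called as reported, 28 with no filter, 0 with the replicate block, 1852 with the block and a mean of at least 10, 3880 unadjusted, 6455 and 6467 under the pan-fibroblast and epithelial scalings, and 12 to 895 with a library left out. Where no cause follows from the number of genes or libraries, the cause was not tested. Signs turned for Dhh (-0.25 scaled to pan-fibroblast markers, and -0.33 to 0.53 with a library left out, turning without Col6a1+ replicate 2, at 0 to 2 counts), Gli3 (-0.63, pan-fibroblast), Hhip (1.23, epithelial) and Ihh (0.030, epithelial). Of the other values of the 9 genes, 115 kept their sign and side of the threshold, 15 came to pass and 9 no longer passed. Shh, Dhh, Smo, Gli2, Gli3 and Hhip had under 100 normalized counts in every library, so counting error limits them most.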

Other observations

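Among the genes of the primary cilium, Kif3a, a motor subunit that builds the cilium, had 172, 3601 and 1767 normalized counts in Col6a1+ CAFs and 259, 5588 and 2166 in Col6a1- CAFs. Replicate 1 was the lowest and replicate 2 the highest in both groups, so that its counts followed the replicate number more than the sort. It was singled out after its values were seen.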
